A study of Homo sapiens with 36 samples.

Results

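Metallothioneins are small cysteine-rich proteins that bind zinc and copper, and MTF1 is the zinc-sensing transcription factor that switches their genes on through short promoter sequences called metal response elements. The members were taken by gene symbol: MT1A, MT1E, MT1F, MT1G, MT1H, MT1M, MT1X, MT2A, MT3 and MTF1. These are 10 symbols, beside 20045 genes with a probe in the whole table. Of these 10 symbols, 9 had a probe and together they had 11 probes. MT1A had none in the probe annotation used and was not analysed here.

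The samples were 36 Illumina BeadArrays of LNCaP cells, an androgen-sensitive human prostate cancer line, in 7 groups. Clone HIF49 carries retroviral HIF1a with 2 amino acid substitutions, was selected in G418 and was measured only in the condition labelled Normal (5 arrays). Clone HIF12 carries the same HIF1a construct and was measured with R1881, with vehicle and in Normal (5 arrays each). LNCaP/Empty, the vector control, was measured with R1881 (5 arrays), with vehicle (5 arrays) and in Normal (6 arrays). R1881 is a synthetic androgen, given at 1 nM for 4 h after 96 h in charcoal stripped serum, and the vehicle was 0.01% ethanol after the same 96 h. The labels do not define Normal, so the vehicle against Normal comparison spans stripped serum, its time and ethanol, which cannot be told apart. Each HIF1a line is 1 clone, so a clone difference cannot be told apart from a difference due to HIF1a. Whether the replicate arrays stand for independent cultures is not stated, so p-values measure the spread between arrays, which may be technical. The arrays read bulk RNA, so a change in every cell and a change in some cells cannot be told apart.

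In prostate epithelium, zinc handling is a well known specialty of the luminal cells, and metallothionein genes are known to respond to zinc, glucocorticoids and oxidative stress. The metallothionein members lie in 1 cluster on chromosome 16, in the order MT3, MT2A, MT1E, MT1M, MT1A, MT1F, MT1G, MT1H and MT1X, whereas MTF1 lies on chromosome 1. The coding sequences of the MT1 genes are close copies of each other, so a probe for 1 of them may also read a neighbour, and this was not tested here.

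The promoters of 3 metallothioneins, the only ones found, are shown because such windows carry the letters through which MTF1 is known to act. Promoter sequence was found for 4 members, MT1H, MT1X, MT2A and MTF1, in RefSeq (GRCh38.p14). Each line gives the 250 bases before the transcription start on the + strand, 5′ to 3′, and capitals mark matches to the metal response element core, searched as TGCACNC and TGCGCNC on both strands.

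MT2A, chr16:56608334-56608583: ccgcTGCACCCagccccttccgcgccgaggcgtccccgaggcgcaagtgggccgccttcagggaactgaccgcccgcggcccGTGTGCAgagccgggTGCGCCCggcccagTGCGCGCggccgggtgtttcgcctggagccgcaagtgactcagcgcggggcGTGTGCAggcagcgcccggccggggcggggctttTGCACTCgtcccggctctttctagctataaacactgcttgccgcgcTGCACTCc
MT1H, chr16:56669564-56669813: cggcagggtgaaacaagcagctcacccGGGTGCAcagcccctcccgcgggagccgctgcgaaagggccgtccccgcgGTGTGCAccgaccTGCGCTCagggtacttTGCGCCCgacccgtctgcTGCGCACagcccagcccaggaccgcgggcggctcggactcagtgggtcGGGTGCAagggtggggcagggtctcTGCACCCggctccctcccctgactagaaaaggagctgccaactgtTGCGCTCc
MT1X, chr16:56682220-56682469: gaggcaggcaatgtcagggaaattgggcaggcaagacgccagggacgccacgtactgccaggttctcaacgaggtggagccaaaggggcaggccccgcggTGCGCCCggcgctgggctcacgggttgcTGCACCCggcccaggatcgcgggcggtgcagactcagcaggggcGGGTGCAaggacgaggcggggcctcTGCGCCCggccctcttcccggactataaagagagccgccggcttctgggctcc

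MT2A held 7 matches, MT1H 8 and MT1X 4, while the MTF1 promoter held 0. Of 35116 promoter windows of this length, 24.8% held at least 1 match, 0.37% held at least 4 and 0.0313% held at least 7. The core bound by HIF, searched as ACGTG and GCGTG, had 1 match in MT2A, 1 in MT1X, 2 in MTF1 and 0 in MT1H, and 43.2% of all windows held at least 1. The half-site TGTTCT of steroid receptors had 0 matches in each of these 4 windows and at least 1 in 12.4% of all windows. These matches describe letters and not binding.

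Between 15374 and 17839 probes were detected per array (detection p under 0.01). The closest array by correlation belonged to the same group for 35 of 36 arrays, and the exception was HIF49 Normal replicate 4, which was closest to LNCaP/Empty Normal replicate 5. Luminal prostate markers were present, with 6 of the 7 genes that had a probe detected on every array, while the basal markers with a probe, KRT5 and KRT14, were detected on none. Of the leukocyte markers CD68 alone was detected on every array, and of the fibroblast markers DCN and COL1A1 were detected on some. R1881 raised FKBP5, an androgen-responsive co-chaperone, by log2 1.72 (SE 0.10) in HIF12 and by 2.38 (SE 0.10) in LNCaP/Empty. HIF1A was higher on every HIF12 array than on any LNCaP/Empty array by the probe ILMN_1763260 (9.46 to 10.31 against 7.94 to 8.94) and by ILMN_1681283 (8.71 to 9.31 against 7.05 to 8.13), but not by ILMN_2379788 (8.11 to 9.08 against 7.70 to 9.03). The array labelled HIF49 Normal replicate 1 went against its label on the first of these probes, with 7.45 where the other 4 HIF49 arrays read 10.00 to 10.35, and on the second, with 7.09 where they read 8.78 to 9.08. On ILMN_2379788 it read 8.76, within their range of 7.68 to 8.96. The same array had the fewest detected probes of all 36 (15374), and its closest array was HIF49 Normal replicate 4. Whether its label or its quality accounts for these readings was not tested. Member differences for HIF49 are therefore given with and without this array. Counts of called member probes, group levels and group orders include it unless stated.

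Of the 11 member probes, 7 were detected on all 36 arrays: those of MT2A, MT1F, MT1G, MT1X and MTF1, ILMN_2173611 for MT1E and ILMN_2124802 for MT1H. The MT3 probe was detected on 8 arrays. The other 3 probes, ILMN_1718968 for MT1E, ILMN_1683923 for MT1H and ILMN_1657435 for MT1M, were detected on no array, so the 2 genes with a pair of probes each had 1 that read signal and 1 that did not. Probes for 4 further metallothionein symbols, MT1B, MT1L, MT1IP and MT4, were detected on no array. Levels are log2 normalized intensities and are set against each other only within a probe. A difference was called when its adjusted p was under 0.05 (limma, adjusted over all 48105 probes tested) and it was at least 1.5-fold, which is 0.585 on the log2 scale.

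**Figure D1:**
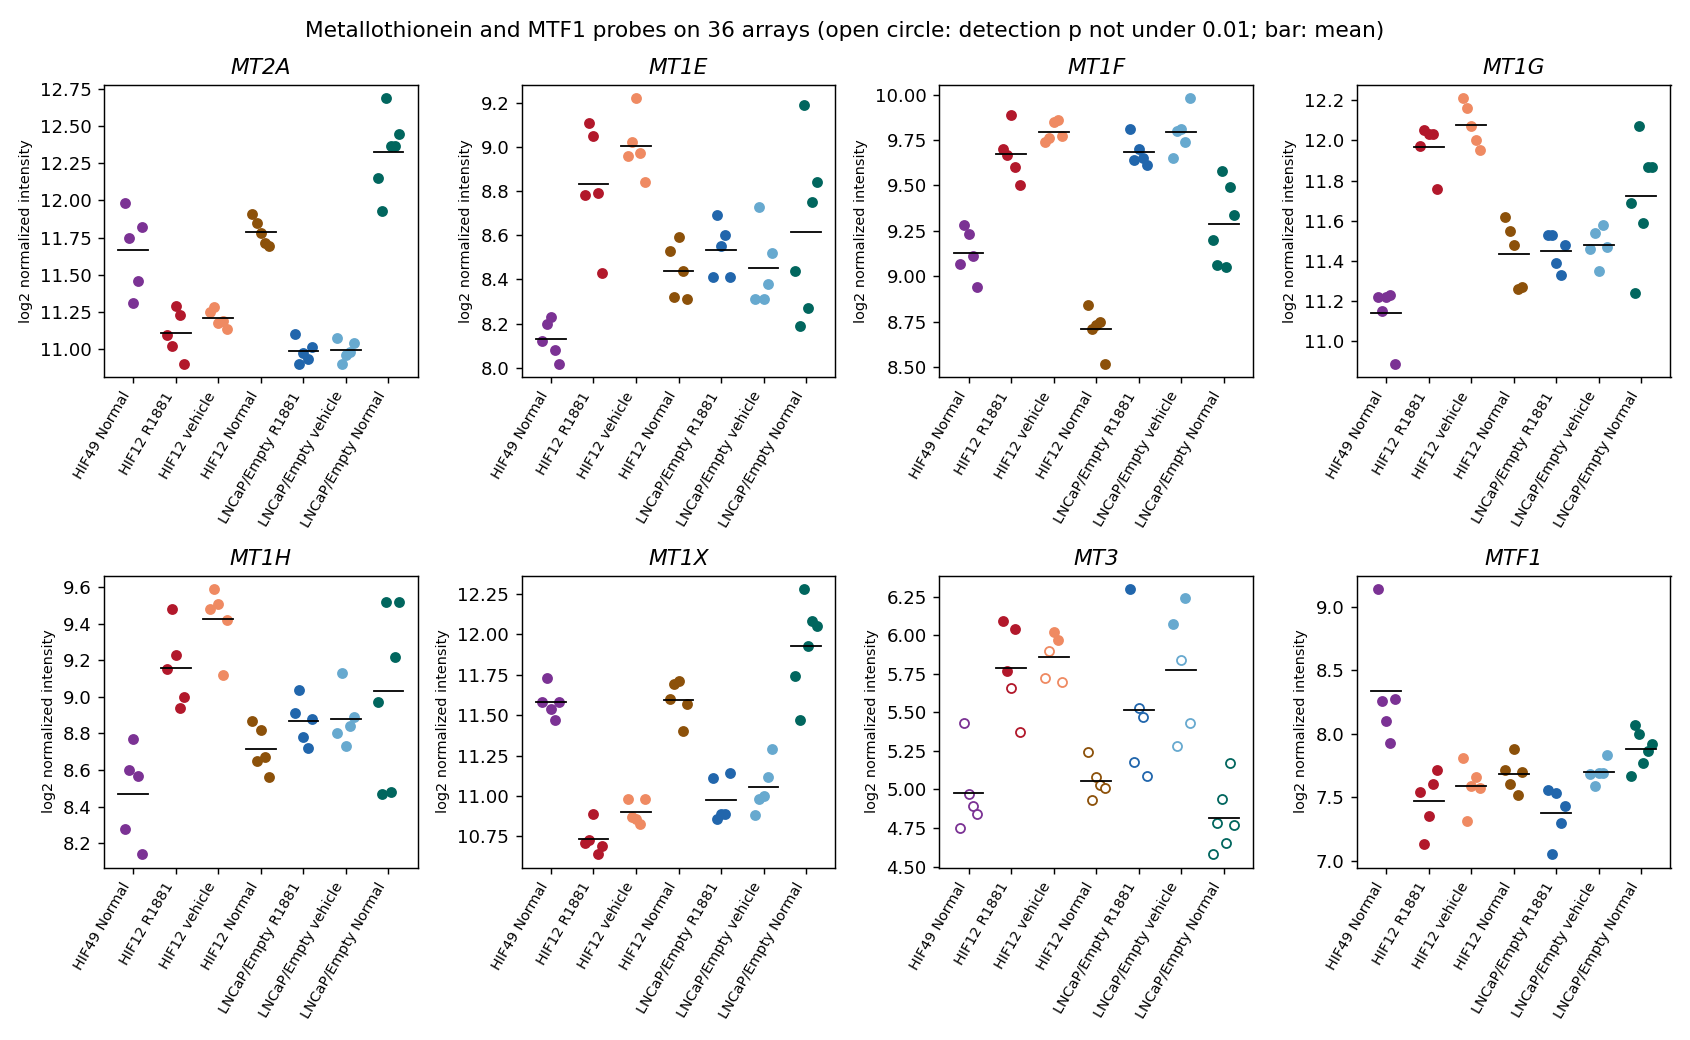
Log2 normalized intensity of the 8 member probes detected on at least 5 arrays, 1 panel per gene, with 1 point per array and a bar at the group mean. Open circles mark arrays on which the probe was not detected. MT2A and MT1X were high in the 3 Normal groups, whereas MT1F was low there.

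Of the 11 comparisons made, vehicle against Normal called the most member probes, in each clone. MT2A and MT1X, the outermost genes of the cluster among those detected on all arrays, read lower in vehicle than in Normal in both clones, while MT1F, MT1G and MT1H, which lie between them, rose in HIF12. Called probes numbered 5 of 11 in HIF12 (4 higher, 1 lower), against 3.79% of all probes in that comparison, and 3 of 11 in LNCaP/Empty (1 higher, 2 lower), against 3.65% of all probes. In both clones the higher ones include MT3, which was detected on no Normal array, so its call is not a measured size. Among the 19105 probes detected on at least 5 arrays, the shares called were 9.33% in HIF12 and 8.95% in LNCaP/Empty. The members were chosen with earlier results of these data known, so their shares, here and below, describe them and are not a test. Over the 7 probes detected everywhere the median difference was 0.56 in HIF12 and -0.19 in LNCaP/Empty, where the median over all probes was 0.00 in both.

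MT2A, the metallothionein expressed in most human tissues, read 11.25, 11.28, 11.17, 11.19 and 11.13 on the HIF12 vehicle arrays, against 11.91, 11.85, 11.78, 11.71 and 11.69 on the HIF12 Normal arrays. It read 11.07, 10.90, 10.96, 10.98 and 11.04 on the LNCaP/Empty vehicle arrays, against a lowest of 11.93, a median of 12.37 and a highest of 12.69 on the LNCaP/Empty Normal arrays. In both clones all the vehicle arrays lay below all the Normal arrays. The difference was -0.58 in HIF12 (SE 0.11, adjusted p = 0.00017), just short of the 1.5-fold mark and so not called, although it was called without HIF12 vehicle replicate 1 or 2 or HIF12 Normal replicate 4 or 5. In LNCaP/Empty MT2A fell by 1.34 (SE 0.10, 2.53-fold, adjusted p = 6.3e-12).

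MT1X, at the other end of the cluster, read 10.98, 10.87, 10.86, 10.83 and 10.98 on the HIF12 vehicle arrays, against 11.60, 11.69, 11.71, 11.40 and 11.57 on the HIF12 Normal arrays. On the LNCaP/Empty vehicle arrays it read 10.88, 10.98, 11.00, 11.12 and 11.29, against 11.47, 11.99 and 12.28 as the lowest, median and highest of the LNCaP/Empty Normal arrays. Again no vehicle array reached a Normal array of its clone. MT1X fell by 0.69 in HIF12 (SE 0.10, adjusted p = 6.1e-06) and by 0.88 in LNCaP/Empty (SE 0.10, adjusted p = 2.9e-08).

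MT1F ran the other way. It read 9.74, 9.76, 9.85, 9.86 and 9.77 on the HIF12 vehicle arrays, against 8.84, 8.71, 8.73, 8.75 and 8.52 on the HIF12 Normal arrays. On the LNCaP/Empty vehicle arrays it read 9.65, 9.80, 9.81, 9.74 and 9.98, against 9.05, 9.27 and 9.58 as the lowest, median and highest of the LNCaP/Empty Normal arrays. All the vehicle arrays of each clone lay above all its Normal arrays. MT1F rose by 1.09 in HIF12 (SE 0.09, 2.13-fold, adjusted p = 4.5e-11), and the difference in LNCaP/Empty was 0.51 (SE 0.09, adjusted p = 5e-05), under 1.5-fold.

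MT1G, a copper and zinc binding family member like the rest, read 12.21, 12.16, 12.07, 12.00 and 11.95 on the HIF12 vehicle arrays, against 11.62, 11.55, 11.48, 11.26 and 11.27 on the HIF12 Normal arrays. It read 11.46, 11.54, 11.35, 11.58 and 11.47 on the LNCaP/Empty vehicle arrays, against a lowest of 11.24, a median of 11.78 and a highest of 12.07 on the LNCaP/Empty Normal arrays. The groups were apart in HIF12 and overlapped in LNCaP/Empty. MT1G rose by 0.64 in HIF12 (SE 0.10, adjusted p = 2.7e-05), and the difference in LNCaP/Empty was -0.24 (SE 0.10, adjusted p = 0.15).

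MT1H, whose promoter is printed above, read 9.48, 9.59, 9.51, 9.12 and 9.42 on the HIF12 vehicle arrays, against 8.87, 8.65, 8.82, 8.67 and 8.56 on the HIF12 Normal arrays. It read 8.80, 9.13, 8.73, 8.84 and 8.89 on the LNCaP/Empty vehicle arrays, against 8.47, 9.09 and 9.52 as the lowest, median and highest of the LNCaP/Empty Normal arrays. As for MT1G, the groups were apart in HIF12 only. MT1H rose by 0.71 in HIF12 (SE 0.16, adjusted p = 0.0016), and the difference in LNCaP/Empty was -0.15 (SE 0.15, adjusted p = 0.7).

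MT1E, the next gene after MT2A in the cluster, averaged 9.00 ± 0.14 in HIF12 vehicle and 8.44 ± 0.13 in HIF12 Normal (SD, n = 5 each). Its difference of 0.56 (SE 0.13, adjusted p = 0.0036) stayed just under 1.5-fold although all the vehicle arrays lay above all the Normal arrays. It was called without HIF12 vehicle replicate 5 or HIF12 Normal replicate 1 or 3. In LNCaP/Empty the difference was -0.16 (SE 0.13, adjusted p = 0.59). MTF1 itself differed by -0.09 in HIF12 (SE 0.14, adjusted p = 0.84) and by -0.19 in LNCaP/Empty (SE 0.14, adjusted p = 0.55), with overlapping arrays in both clones.

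**Figure D2:**
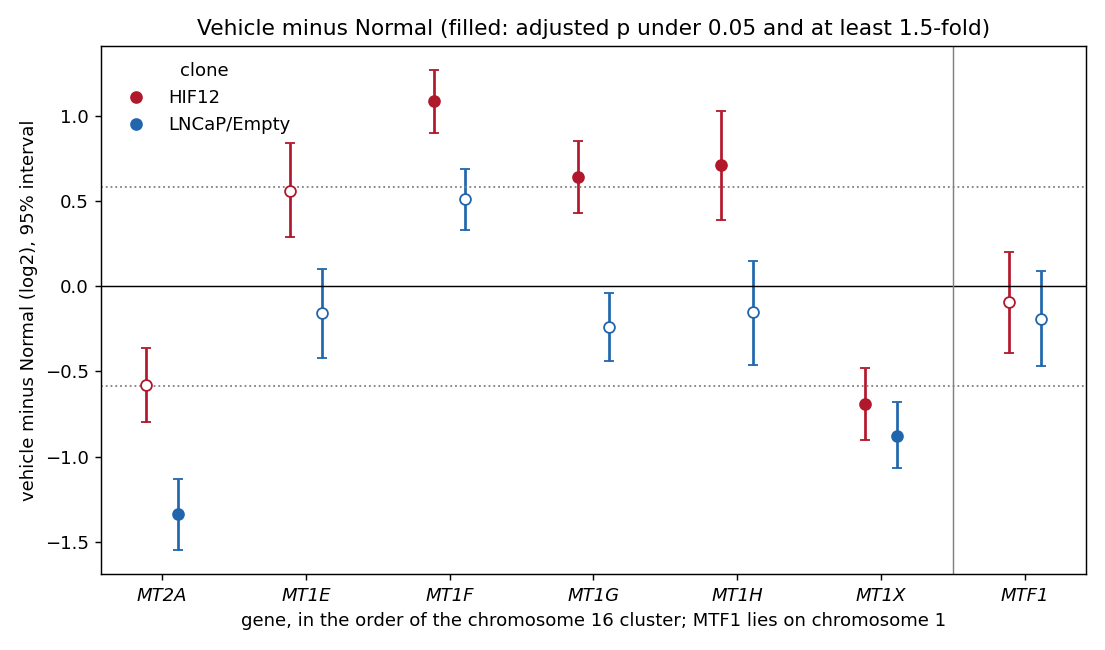
Vehicle minus Normal difference (log2, with its 95% interval) of the 7 probes detected on all 36 arrays, with HIF12 left of LNCaP/Empty for each gene and the genes in cluster order. Filled points passed both thresholds. The points of MT2A and MT1X lay below 0 in both clones, and those of MT1E, MT1G and MT1H lay above 0 in HIF12 and below 0 in LNCaP/Empty.

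MT3, best known from brain, was detected on 2 of 5 arrays in HIF12 vehicle and in LNCaP/Empty vehicle, on 3 of 5 in HIF12 R1881, on 1 of 5 in LNCaP/Empty R1881 and on 0 of the arrays of any Normal group. The fitted differences between vehicle and Normal passed both thresholds, at 0.80 in HIF12 (adjusted p = 0.002) and 0.96 in LNCaP/Empty (adjusted p = 0.00012). These are not measured sizes, because the vehicle means of 5.86 in HIF12 and 5.77 in LNCaP/Empty lay below the limits of detection of the Normal arrays (5.88 and 5.90), so no fold is given.

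The test of the difference between both shifts, HIF12 minus LNCaP/Empty, called 2 of the 11 member probes, both positive, against 0.133% of all probes. MT1G differed by 0.88 (SE 0.14, adjusted p = 0.0012) and MT2A by 0.76 (SE 0.15, adjusted p = 0.013). MT1F differed by 0.58 (SE 0.13, adjusted p = 0.038), under 1.5-fold. MT1H at 0.86 (SE 0.22, adjusted p = 0.14) and MT1E at 0.73 (SE 0.19, adjusted p = 0.16) had estimates of the same size with wider errors. MT1X differed by 0.18 (95% interval -0.10 to 0.47).

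The LNCaP/Empty Normal arrays, which enter these tests, had the widest spread of the 7 groups on 5 of the 6 metallothionein probes detected everywhere, the exception being MT2A (SD 0.26, against 0.27 in HIF49 Normal). The SD of these 6 probes ran between 0.22 and 0.47 in this group and between 0.06 and 0.27 in the other 6 groups. Replicate 3 read highest of the 6 arrays on 5 of these probes, and replicate 2 read lowest on 5, so the probes moved together between arrays. The number of detected probes was alike, at 16677 on replicate 3 and 16740 on replicate 2. Without replicate 2 of this group, the difference between the shifts was called for 5 member probes, MT1E, MT1F, MT1G, MT1H and MT2A, and without replicate 4 for 4.

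R1881 for 4 h called no member probe, in a comparison that asks whether androgen alters these genes. Of the 11 probes, 0 were called in HIF12, against 0.767% of all probes, and 0 in LNCaP/Empty, against 1.06% of all probes. At an unadjusted p under 0.05 there were 0 in HIF12 and 1 in LNCaP/Empty. The 95% intervals limit the size. For MT2A the difference was -0.10 (-0.32 to 0.12) in HIF12 and -0.01 (-0.22 to 0.21) in LNCaP/Empty. For MT1G it was -0.11 (-0.32 to 0.10) in HIF12 and -0.03 (-0.24 to 0.18) in LNCaP/Empty. For MT1H it was -0.26 (-0.58 to 0.06) in HIF12 and -0.01 (-0.33 to 0.31) in LNCaP/Empty. The lower end passed 1.5-fold in LNCaP/Empty for MTF1 (-0.61) and for the mostly undetected MT3 (-0.62).

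The 1 probe with an unadjusted p under 0.05 was that of MTF1 in LNCaP/Empty. It read 7.56, 7.05, 7.53, 7.30 and 7.43 on the R1881 arrays, against 7.68, 7.59, 7.69, 7.69 and 7.83 on the vehicle arrays. All the R1881 arrays lay below all the vehicle arrays, but the difference of -0.32 (SE 0.14, adjusted p = 0.49) did not pass. In HIF12 MTF1 differed by -0.12 (SE 0.14, adjusted p = 0.98) with overlapping arrays. The test of the difference between the R1881 effects, HIF12 minus LNCaP/Empty, called 0 of 11 member probes, against 0.00416% of all probes, with 0 of 11 at an unadjusted p under 0.05.

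**Figure D3:**
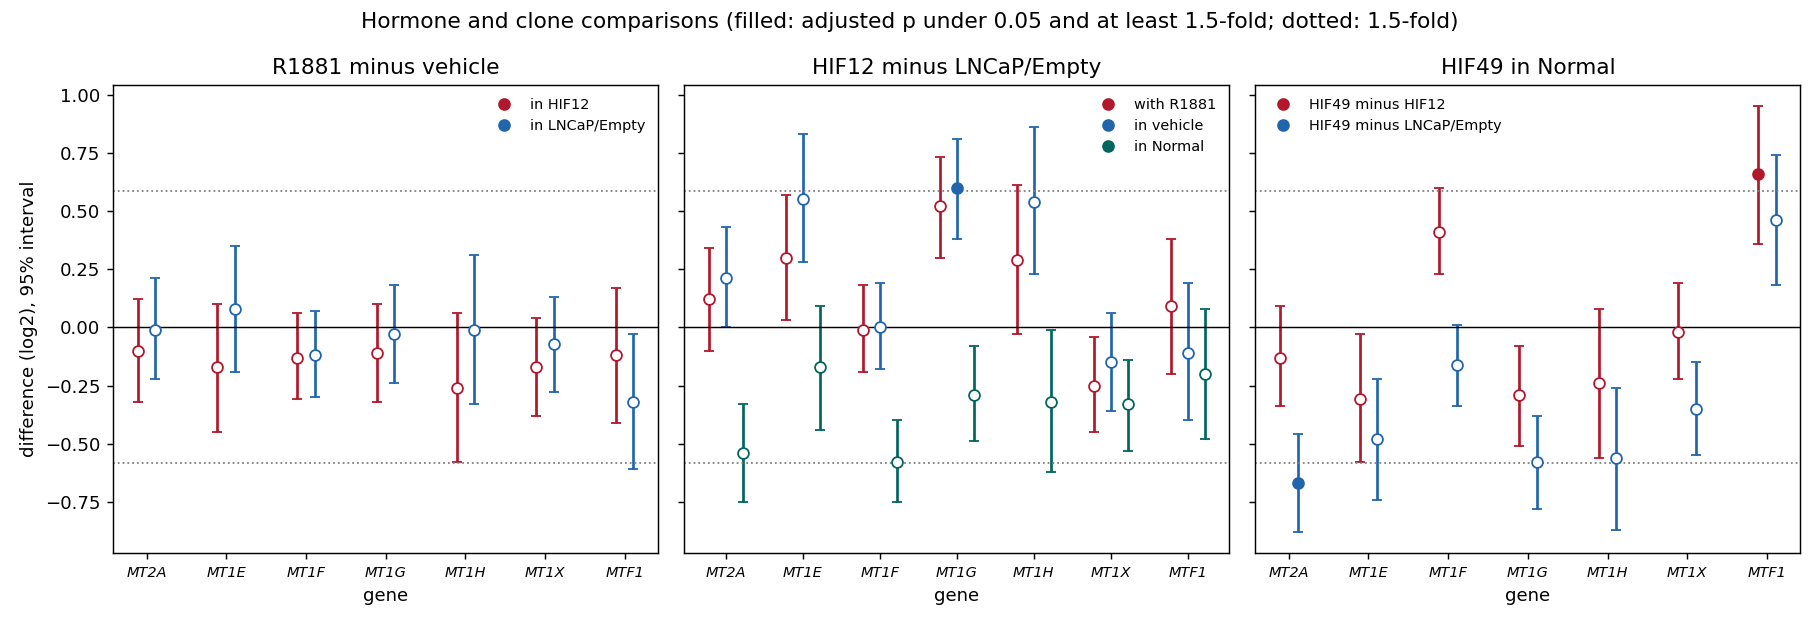
Differences (log2, with 95% intervals) of the 7 probes detected on all 36 arrays for R1881 minus vehicle, for HIF12 minus LNCaP/Empty in 3 conditions, and for HIF49 minus HIF12 or LNCaP/Empty in Normal. Filled points passed both thresholds and dotted lines mark 1.5-fold. The filled points are MT1G (HIF12 in vehicle), MT2A (HIF49 against LNCaP/Empty) and MTF1 (HIF49 against HIF12).

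HIF12 was set against LNCaP/Empty to ask what goes with the HIF1a clone. The clone differences of MT1G and MT2A were not the same in vehicle and Normal, by the test of the shifts above. Between vehicle and R1881 the test of the R1881 effects called no member probe. In vehicle 1 of 11 probes was called, higher in HIF12, against 1.05% of all probes. This was MT1G, which read 11.95 to 12.21 on the HIF12 arrays and 11.35 to 11.58 on the LNCaP/Empty arrays, and rose by 0.60 (SE 0.10, 1.51-fold, adjusted p = 0.00035). It sat at the 1.5-fold mark and fell below it without HIF12 vehicle replicate 1 (0.56), HIF12 vehicle replicate 2 (0.575) or LNCaP/Empty vehicle replicate 3 (0.56). MT1E differed by 0.55 (SE 0.13, adjusted p = 0.015) with no overlap between arrays, and MT1H by 0.54 (SE 0.16, adjusted p = 0.053). Both were called without LNCaP/Empty vehicle replicate 2, MT1H without HIF12 vehicle replicate 4 and MT1E without HIF12 vehicle replicate 5. MT1F, with 9.80 in both groups, differed by 0.00 (95% interval -0.18 to 0.19).

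With R1881, 0 of 11 probes were called, against 1.53% of all probes, with 3 at an unadjusted p under 0.05. MT1G averaged 11.97 ± 0.12 in HIF12 and 11.45 ± 0.09 in LNCaP/Empty (SD, n = 5 each), a difference of 0.52 (SE 0.10, adjusted p = 0.0017) that was under 1.5-fold. MT1X differed by -0.25 (SE 0.10, adjusted p = 0.23).

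In Normal, 0 of 11 probes were called, against 1.17% of all probes, with 5 at an unadjusted p under 0.05. Each of the 7 probes detected everywhere had a difference below 0, between -0.58 and -0.17. MT1F averaged 8.71 ± 0.12 in HIF12 (SD, n = 5) and 9.29 ± 0.22 in LNCaP/Empty (SD, n = 6), a difference of -0.58 (SE 0.09, adjusted p = 2.3e-05). MT2A averaged 11.79 in HIF12 and 12.33 in LNCaP/Empty, a difference of -0.54 (SE 0.10, adjusted p = 7e-04). Both had all the HIF12 arrays below all the LNCaP/Empty arrays and both stayed just under 1.5-fold. Without LNCaP/Empty Normal replicate 2 both were called, and MT1F was also called without LNCaP/Empty Normal replicate 1 or 4 or HIF12 Normal replicate 1 or 4.

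HIF49 was measured in Normal only. Against LNCaP/Empty, 1 of 11 probes was called, lower in HIF49, against 1.03% of all probes. This was MT2A, which read 11.98, 11.75, 11.31, 11.46 and 11.82 on the HIF49 arrays, against 11.93, 12.37 and 12.69 as the lowest, median and highest of the LNCaP/Empty arrays. Only the array labelled HIF49 Normal replicate 1 reached into the LNCaP/Empty range. MT2A fell by 0.67 (SE 0.10, adjusted p = 3.9e-05), by 0.75 (SE 0.10) without that array, and by 0.58 without HIF49 Normal replicate 3, where it was no longer called.

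MT1G read 11.22, 11.15, 11.22, 11.23 and 10.89 on the HIF49 arrays, against 11.24 to 12.07 on the LNCaP/Empty arrays. The groups did not overlap, and the difference of -0.58 (SE 0.10, adjusted p = 0.00022) was just under 1.5-fold. Without the array labelled HIF49 Normal replicate 1 it was -0.60 (SE 0.11) and was called, as it was without HIF49 replicate 3 or 4 or LNCaP/Empty Normal replicate 1, 2 or 4. MT1H at -0.56 (adjusted p = 0.031), MT1E at -0.48 (adjusted p = 0.03) and MT1X at -0.35 (adjusted p = 0.042) were also under 1.5-fold, and MT1H was called without HIF49 replicate 2 or 3 or LNCaP/Empty Normal replicate 2 or 4. Without the array labelled HIF49 Normal replicate 1, these 3 differences were -0.51, -0.48 and -0.35, with adjusted p of 0.088, 0.054 and 0.071.

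Against HIF12, 1 of 11 probes was called, higher in HIF49, against 1.92% of all probes. It was MTF1, which read 9.14, 8.26, 8.10, 7.93 and 8.27 on the HIF49 arrays and 7.71, 7.60, 7.88, 7.52 and 7.70 on the HIF12 arrays. The 9.14 came from the array labelled HIF49 Normal replicate 1, and the other 4 HIF49 arrays still lay above all the HIF12 arrays. MTF1 rose by 0.66 (SE 0.14, 1.58-fold, adjusted p = 0.0028). Without that array the difference was 0.46 (SE 0.11, 1.37-fold, adjusted p = 0.0095), which was not called. Over the alternatives tried its adjusted p ran between 0.00067 and 0.14. Against LNCaP/Empty MTF1 differed by 0.46 (SE 0.14, adjusted p = 0.068), and by 0.26 (SE 0.11) without the array.

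MT1F differed by 0.41 between HIF49 and HIF12 (SE 0.09, adjusted p = 0.0027) with no overlap between arrays, under 1.5-fold. MT1X differed by -0.02 (95% interval -0.22 to 0.19). Without the array labelled HIF49 Normal replicate 1, the MT1F difference was 0.43 (SE 0.10) and the MT1X difference -0.01 (SE 0.11). The array that carried the highest MTF1 reading lay within the range of the other HIF49 arrays on MT1E, MT1F, MT1G, MT1H and MT1X, and above it on MT2A (11.98 where the others read 11.31 to 11.82).

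**Figure D4:**
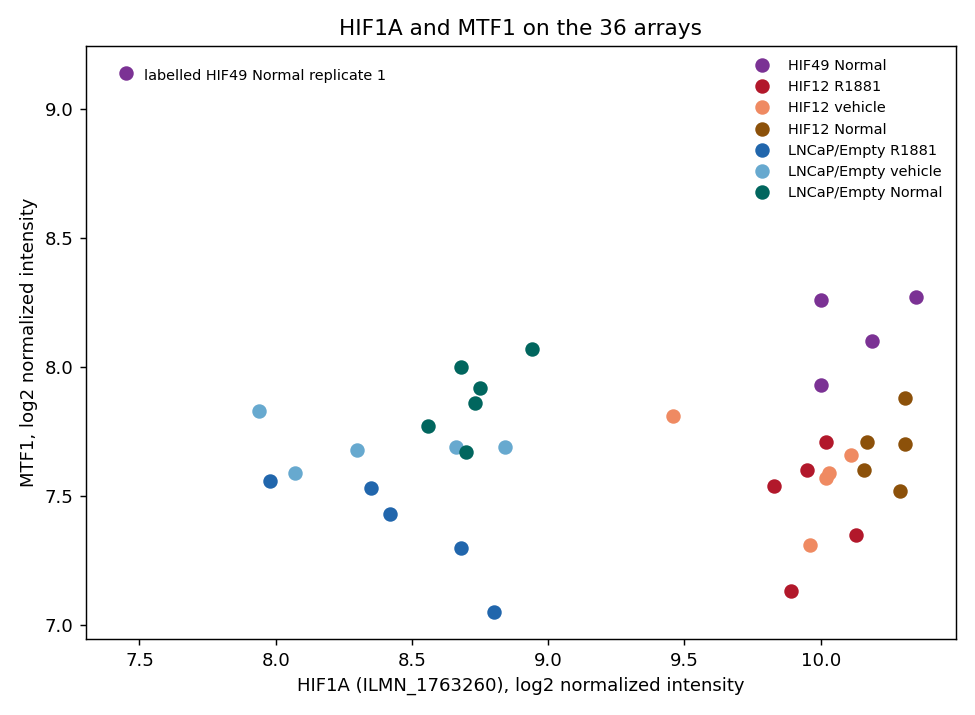
MTF1 against HIF1A (probe ILMN_1763260), both as log2 normalized intensity, with 1 point per array and a colour per group. The array labelled HIF49 Normal replicate 1 sits alone at 7.45 for HIF1A and 9.14 for MTF1.

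By level, MT2A and MT1X shared the order of the 3 Normal groups at the top, and MT1E, MT1G and MT1H shared another order at its top and its foot. MT2A and MT1X were highest in LNCaP/Empty Normal (means 12.33 and 11.93), followed by HIF12 Normal and HIF49 Normal, with the 4 stripped serum groups below and no array overlap between HIF49 Normal and the next group. Among those 4, the HIF12 means lay above the LNCaP/Empty means for MT2A and below them for MT1X, with overlap between neighbours. MT1E, MT1G and MT1H were highest in HIF12 vehicle (9.00, 12.08 and 9.42), then HIF12 R1881, then LNCaP/Empty Normal, and lowest in HIF49 Normal (8.13, 11.14 and 8.47). For these 3 genes neighbouring groups overlapped, except that HIF12 Normal did not overlap HIF49 Normal for MT1E and MT1G. MT1F was highest in HIF12 vehicle and LNCaP/Empty vehicle (9.80 each) and lowest in HIF12 Normal (8.71), which overlapped no neighbour. The span between the highest and the lowest group mean was 1.35 for MT2A, 1.20 for MT1X and 1.09 for MT1F. MTF1 was highest in HIF49 Normal (8.34, the array with 9.14 included) and lowest in LNCaP/Empty R1881 (7.37), with overlap between all neighbouring groups.

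The genes whose levels ran most like the mean of the 6 metallothionein probes over the 36 arrays were NSMF (Pearson r = 0.67), ASNS, which makes asparagine (0.67), HID1 (0.58), HES1, a Notch target (0.57), and SARS1, the seryl-tRNA synthetase (0.55). They were ranked among 14520 probes, whose median r was 0.01. The mean pools genes with unlike patterns, so likeness to it is not likeness to each member. Over the 36 arrays r was 0.91 between MT1X and MT2A and between MT1E and MT1H, but -0.61 between MT1F and MT1X. That negative value reflects the group means. With each group's mean taken out, r between MT1F and MT1X was 0.61, and the 15 metallothionein pairs ran from 0.19 to 0.8. The HES1 group means, 5.31 to 5.99, lay at or under the arrays' limits of detection (5.69 to 6.13), so its place rests largely on readings near background. The arrays share groups and clones, so these values describe likeness and nothing more.

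Zinc, copper, iron and oxidative stress genes were listed beside the metallothioneins, and 46 of 47 had a probe (69 probes). They are ordered here by role. SLC39A8, a zinc and manganese importer, was far lower in HIF12 than in LNCaP/Empty. Its probe ILMN_1695316 averaged 7.19 ± 0.20 in HIF12 and 10.10 ± 0.17 in LNCaP/Empty in vehicle (SD, n = 5 each), a log2 difference of -2.92 (SE 0.13, 7.55-fold, adjusted p = 2e-17), and the differences were -2.73 with R1881 and -1.97 in Normal. Those of the other SLC39A8 probe were -2.86, -2.61 and -1.63 in the same order of conditions. HIF49 did not share this, with 9.83 ± 0.42 in HIF49 against 7.84 ± 0.22 in HIF12 in Normal (SD, n = 5 each), a difference of 2.00 (SE 0.13), or 2.18 (SE 0.10) without the array labelled HIF49 Normal replicate 1. The vehicle minus Normal shift of SLC39A8 also differed between the clones, by -0.94 (SE 0.18, adjusted p = 0.012) and -1.23 (SE 0.20, adjusted p = 0.0012) on its probes, HIF12 minus LNCaP/Empty. That is the opposite sign to MT1G and MT2A. NQO1, also on the list, had their sign, at 0.59 (SE 0.13, adjusted p = 0.047) on its probe ILMN_1720282. In this test the list had 1 probe higher and 2 lower, which is 4.35% of its probes, against 0.133% of all probes.

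Among the other importers, SLC39A10 was the only listed gene called for R1881 against vehicle. It rose by 0.59 in HIF12 (SE 0.15, adjusted p = 0.046) and by 0.69 in LNCaP/Empty (SE 0.15, adjusted p = 0.0064). In vehicle against Normal it fell by 0.96 in HIF12 (SE 0.15) and by 1.30 in LNCaP/Empty (SE 0.15).

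The exporter SLC30A1, itself a known MTF1 target, rose in vehicle against Normal by 0.72 in HIF12 (SE 0.09, adjusted p = 3.2e-07) and by 0.70 in LNCaP/Empty (SE 0.09, adjusted p = 1.8e-07) on its probe ILMN_1745021, and by 0.70 and 0.75 on its other probe. In both clones this was the direction of the MT1F difference (1.09 in HIF12 and 0.51, under 1.5-fold, in LNCaP/Empty). MT1X and MT2A went the opposite way in both clones, MT2A by -0.58 in HIF12 (not called) and -1.34 in LNCaP/Empty. MT1E, MT1G and MT1H lay above 0 in HIF12 only, with -0.16, -0.24 and -0.15 in LNCaP/Empty, none of these called. SLC30A4, another zinc exporter, rose by 0.74 in HIF12 and by 0.81 in LNCaP/Empty on its probe ILMN_1653098.

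NQO1, an antioxidant enzyme, rose in vehicle against Normal by 1.23 in HIF12 (SE 0.09) and by 0.64 in LNCaP/Empty (SE 0.09) on its probe ILMN_1720282. HMOX1, the haem-degrading enzyme, rose by 0.61 in HIF12 (SE 0.12, adjusted p = 0.00042) and was not called in LNCaP/Empty. SLC7A11, on the same list, went the other way in LNCaP/Empty, where it fell by 0.74 (SE 0.10, adjusted p = 2.4e-06). It was not called in HIF12. The list as a whole had 17.4% of its 69 probes called in HIF12 (9 higher, 3 lower) and 11.6% in LNCaP/Empty (6 higher, 2 lower) in vehicle against Normal. Over all probes these shares were 3.79% and 3.65%, and over probes detected on at least 5 arrays, as 51 of the 69 were, 9.33% and 8.95%. The list was also chosen with earlier results of these data known, so its shares in every comparison describe it and are not a test. The list had a median difference of 0.02 in HIF12 and 0.01 in LNCaP/Empty. For HIF12 against LNCaP/Empty it had 2 probes higher and 2 lower in vehicle, 1 higher and 2 lower with R1881, and 0 higher and 3 lower in Normal. These are 5.8%, 4.35% and 4.35% of the list's probes, against 1.05%, 1.53% and 1.17% of all probes. In each of these conditions both probes of SLC39A8 were among the lower ones, so 1 gene was counted by each of its probes. Shares over detected probes alone were not computed for the clone comparisons. HIF49 had 0 higher and 1 lower against LNCaP/Empty, and 3 higher and 0 lower against HIF12, which became 3 higher and 1 lower without the array labelled HIF49 Normal replicate 1. With all arrays these are 1.45% and 4.35% of the list's probes, against 1.03% and 1.92% of all probes. Both SLC39A8 probes were among those higher in HIF49 than in HIF12.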

How the data were processed

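RNA of 36 cultures or aliquots (the labels do not say which) was hybridised to Illumina BeadArrays. The deposited table holds, per array, non-normalized probe intensity and a detection p-value for 48107 probes, as the authors exported it, and a second deposited table holds quantile normalized intensity. The methods name another array version than the platform whose annotation the probes match. How detection p-values were computed is not given in the sources used here. Here intensities were background-corrected with negative controls inferred from the detection p-values (limma 3.58.1 in R 4.3.3, nec, offset 16), quantile normalized and taken to log2, and 48105 probes with complete values were tested with 1 mean per group (lmFit, eBayes, Benjamini-Hochberg). The platform's annotation named 1 gene for 30112 probes, several for 8 and none for 17985. Each probe annotated to a member symbol was described, and the genes named from the metal list were taken from those that passed both thresholds. The members and lists were chosen with earlier results of these data known. The procedure was tested on simulated data with independent noise per probe and array, and so without probes that move together between arrays. Alternatives were other background corrections and scalings, the deposited normalized table, only detected probes, only the compared arrays, blocks, array weights and leaving out each array. Precision is limited by 5 or 6 arrays per group.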

Additional observations from a re-analysis of the deposited data

Results flagged for a closer look

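Among 56 combinations of probe and group, 3 arrays lay far from the other arrays of their group. Chance alone gives about 1 in 20 of such combinations, so 3 of 56 is near the chance rate. MT1G read 11.76 on HIF12 R1881 replicate 5, where the other 4 arrays read 11.97 to 12.05. MT1G read 10.89 on HIF49 Normal replicate 5, where the others read 11.15 to 11.23. MTF1 read 9.14 on the array labelled HIF49 Normal replicate 1, where the others read 7.93 to 8.27, and that array also read 7.45 for HIF1A.

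The vehicle minus Normal shift differed between clones, by a test of the difference in the same fit (HIF12 minus LNCaP/Empty), for MT1G (0.88, adjusted p = 0.0012), MT2A (0.76, adjusted p = 0.013) and MT1F (0.58, adjusted p = 0.038).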

How the results depend on the processing

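Of the 13 called member values, 286 combinations with an alternative were computed, of which 267 kept the call, 19 lost it and 0 changed sign. The calls in vehicle against Normal stayed within 4 to 6 probes in HIF12 and 2 to 3 in LNCaP/Empty, and R1881 against vehicle called no member in either clone under any of the alternatives. HIF12 against LNCaP/Empty in vehicle had 0 called without background correction, with plain normexp (offset 50) and from the deposited normalized table, and 3 with median scaling. Median scaling also gave 1 with R1881, 1 in Normal, and 2 for HIF49 against LNCaP/Empty. Array weights gave 1 for HIF12 against LNCaP/Empty in Normal, 2 for HIF49 against LNCaP/Empty and 4 for the difference of the shifts. HIF49 against HIF12 had 0 called without background correction, with plain normexp, from the deposited table, with only the compared arrays, and with array weights. HIF49 against LNCaP/Empty had 0 with only the compared arrays. Leaving out 1 array at a time gave 2 to 5 called for the difference of the shifts. It gave 0 to 2 for HIF12 against LNCaP/Empty in Normal, 0 to 3 in vehicle, 1 to 3 for HIF49 against LNCaP/Empty and 0 to 1 for HIF49 against HIF12. MT3 was below 1.5-fold without background correction (0.34 in HIF12, 0.485 in LNCaP/Empty), and the cause was not tested for any of these. Array labels share replicate numbers. Same-numbered arrays shared little deviation, with r between -0.24 and 0.21 over 45 pairs, 8 of them over 0.1. In 14 of the 45 pairs the same-numbered array was the best match, so weak pairing is not excluded. With the replicate number as a block no call changed: 1 member probe was called for HIF12 against LNCaP/Empty in vehicle, 5 for vehicle against Normal in HIF12 and 3 in LNCaP/Empty.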
